A study of Homo sapiens with 12 samples.

Results

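The SORT1-CELSR2-PSRC1 locus on chromosome 1 was taken as the stretch from 109780000 to 109960000 (GRCh37), about 180 kb, and its members were the peaks of 3 deposited lists that overlapped it. There were 77 such regions among 273822 in the lists: 24 of 66586 for H3K27ac, 42 of 182755 for H3K4me1 and 11 of 24481 for H3K4me3. The stretch was defined by position, not by a threshold on peak values. The lists came from HepG2, an established human liver tumour line, grown untreated, and chromatin immunoprecipitation and sequencing (ChIP-seq) was used to map the 3 histone marks. Per the labels, 12 libraries formed 4 groups of 3, namely 1 group for each mark and a control group that was titled as input but labelled with an anti-mouse IgG antibody. All groups were the same untreated cells of this 1 tumour line, and normal hepatocytes were not analysed here. Each list pooled its 3 replicates, so no value here has a replicate error and no difference was tested. Values of the control libraries were not analysed here, and the depth behind the lists is unknown.

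The locus is among the best known associations with plasma LDL cholesterol. SORT1 encodes sortilin, a sorting receptor that moves cargo between the Golgi and the endosomal and lysosomal compartments and affects the release of apolipoprotein B particles from liver cells. CELSR2 encodes an atypical cadherin of the planar cell polarity system, and PSRC1 encodes a microtubule-binding protein of the mitotic spindle. The variant rs12740374 lies near the end of CELSR2, and its minor allele is known to create a binding site for C/EBP factors and to raise SORT1 expression in liver. H3K4me3 typically marks active gene starts, H3K4me1 enhancers and the flanks of starts, and H3K27ac both when active. The submitters state that they mapped these marks to rank candidate causal variants.

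The 3 marks together covered 36.2% of the locus, in 38 merged stretches totalling 65.2 kb. H3K27ac covered 41.3 kb (22.9%), H3K4me1 56.6 kb (31.5%) and H3K4me3 14.8 kb (8.21%). Over chromosomes 1 to 22 and X the same lists covered 3.04%, 6.47% and 1.49%. The covered share was thus 7.55 times that of the whole list for H3K27ac, 4.86 times for H3K4me1 and 5.51 times for H3K4me3. The genome was also divided into 16846 windows of the length of the locus. Of these, 1.5% held at least as many H3K27ac bases, 3.75% at least as many H3K4me1 bases and 2.84% at least as many H3K4me3 bases. Among the 7146 windows that held all 3 marks, the shares were 3.51%, 8.76% and 6.7%. Marking at least as dense as in the locus was thus found in 251, 626 and 479 of those windows.

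**Figure D1:**
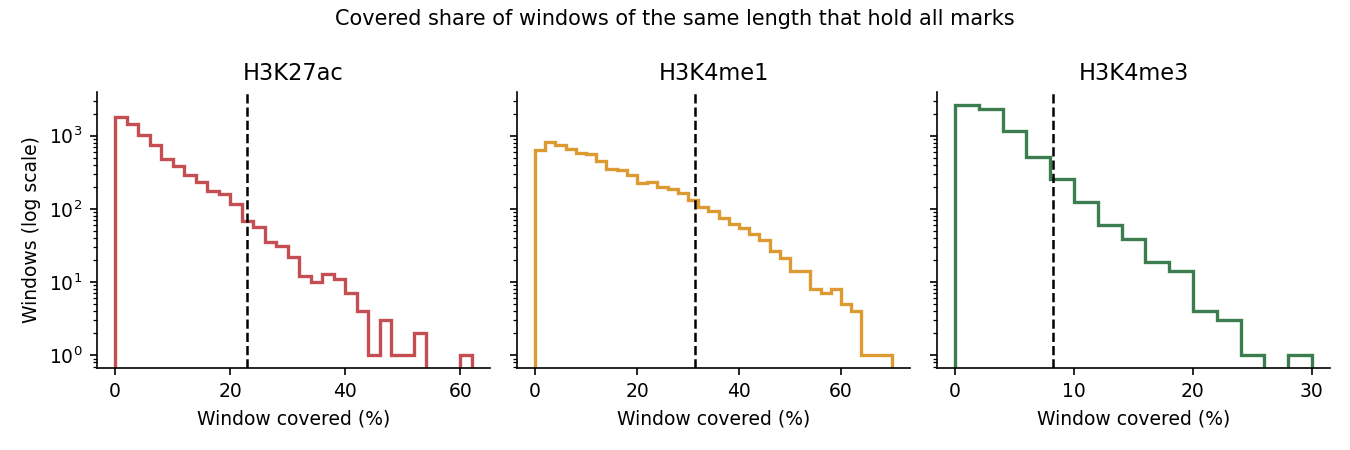
Number of windows (y axis, log scale) by the percent of the window covered by each mark (x axis, bins of 2%), for the 7146 windows of the length of the locus that hold all 3 marks. The dashed line is the locus, at 22.9% for H3K27ac, 31.5% for H3K4me1 and 8.21% for H3K4me3, in the upper part of each distribution.

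The regions were spread unevenly. The signal value given with each peak was made by the authors' peak caller, and it is read here through its percentile, the percent of regions in the same list on chromosomes 1 to 22 and X with a lower value. Signal values in the locus ran from 1.85 to 37.0 for H3K27ac (median 3.42, against 3.15 for the list), from 1.87 to 11.6 for H3K4me1 (3.96 against 3.42) and from 1.77 to 38.2 for H3K4me3 (2.91 against 13.3). Median widths were 637, 872 and 997 bp, against 723, 696 and 1536 bp for the lists. The typical H3K4me3 region of the locus was therefore weaker and narrower than that of its list. The stretch of 3.80 kb between CELSR2 and PSRC1 was the most densely acetylated part, with 88.6% of its bases in H3K27ac regions and 85.4% in H3K4me1 regions. It held 0 H3K27ac summits, as its acetylated bases belonged to the region over rs12740374, whose summit lay in the CELSR2 body. Between PSRC1 and SORT1, over 26.4 kb, H3K27ac covered 37.5%, H3K4me1 54.6% and H3K4me3 16.9%. In the CELSR2 body, of 25.7 kb, the shares were 17.5%, 33.8% and 12.4%. In the SORT1 body, of 88.4 kb, they were 21.7%, 23.8% and 3.72%. The 12.6 kb before CELSR2 carried much H3K4me1 (52.8%) and little H3K27ac (5.87%). The 19.4 kb on the other side of SORT1 had shares of 9.29% for H3K27ac, 1.89% for H3K4me1 and 5.40% for H3K4me3, the last of these in the region over the SORT1 start.

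**Figure D2:**
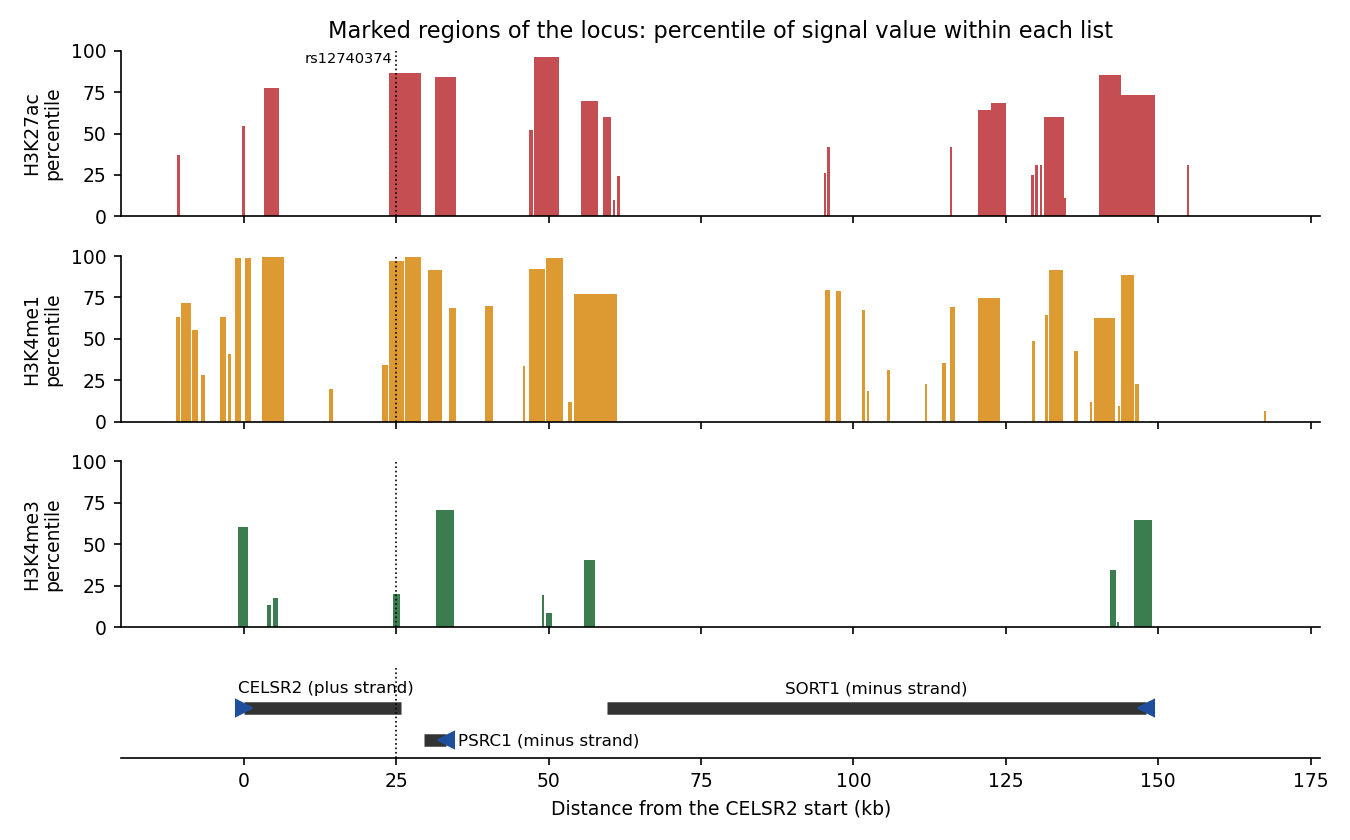
Regions of the 3 marks along the locus, as kb from the CELSR2 start, with the height of each bar giving the percentile of its signal value within its list and the dotted line marking rs12740374. The highest H3K27ac bar, at percentile 96.4, stands between PSRC1 and SORT1, and a stretch of 33412 bp inside SORT1 has no bar of any mark.

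The promoter sequences are shown because H3K4me3 lay over the starts of all 3 genes. RefSeq lists a second SORT1 start inside the gene, which is printed as well. They are RefSeq windows of 300 bases, 250 before to 50 after a start, in build GRCh38.p14, each read along transcription. GRCh38.p14 positions are given only for these sequences and were not converted to GRCh37. The 3 genes matched 4 entries in the RefSeq table. Capitals mark each GC box (GGGCGG, or CCGCCC on the other strand) and each CCAAT box (CCAAT or ATTGG). The CELSR2 window is chr1:109249289-109249588 on the plus strand, and the others, on the minus strand, are chr1:109283096-109283395 for PSRC1 and chr1:109397869-109398168 and chr1:109393086-109393385 for the SORT1 starts.
CELSR2: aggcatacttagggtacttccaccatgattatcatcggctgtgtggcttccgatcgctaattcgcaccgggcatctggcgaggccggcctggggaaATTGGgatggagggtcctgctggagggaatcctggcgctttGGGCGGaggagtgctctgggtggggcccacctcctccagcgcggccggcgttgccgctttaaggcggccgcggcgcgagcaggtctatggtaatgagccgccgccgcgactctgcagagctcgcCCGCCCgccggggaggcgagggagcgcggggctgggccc
PSRC1: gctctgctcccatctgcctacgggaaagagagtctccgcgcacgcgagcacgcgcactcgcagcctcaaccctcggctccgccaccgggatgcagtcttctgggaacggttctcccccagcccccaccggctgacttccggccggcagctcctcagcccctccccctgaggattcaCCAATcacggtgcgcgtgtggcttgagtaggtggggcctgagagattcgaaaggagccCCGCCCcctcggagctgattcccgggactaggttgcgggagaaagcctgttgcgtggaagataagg
SORT1 first start: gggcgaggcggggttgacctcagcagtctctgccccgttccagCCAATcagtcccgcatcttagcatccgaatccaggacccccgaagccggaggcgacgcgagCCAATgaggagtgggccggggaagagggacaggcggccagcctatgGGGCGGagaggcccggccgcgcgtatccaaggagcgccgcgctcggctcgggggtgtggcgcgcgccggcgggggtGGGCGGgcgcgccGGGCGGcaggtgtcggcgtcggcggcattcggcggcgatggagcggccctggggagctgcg
SORT1 second start: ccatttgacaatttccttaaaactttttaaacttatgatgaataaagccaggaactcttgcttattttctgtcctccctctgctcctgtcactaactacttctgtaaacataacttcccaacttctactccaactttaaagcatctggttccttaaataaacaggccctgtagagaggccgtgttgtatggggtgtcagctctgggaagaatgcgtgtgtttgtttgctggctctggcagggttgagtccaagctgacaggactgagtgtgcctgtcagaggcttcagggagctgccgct
The CELSR2 window held 30 CpG dinucleotides, the PSRC1 window 24 and the window of the first SORT1 start 41, against a median of 14 over 35116 promoter windows. The window of the second SORT1 start held 3. GC content was 68.0%, 65.3% and 74.7% in the first 3 windows and 45.7% in the fourth. GC boxes numbered 2, 1 and 3 in the windows of CELSR2, PSRC1 and the first SORT1 start, and 45% of all promoter windows held at least 1. CCAAT boxes numbered 1, 1 and 2 in the same windows, and 34.6% of all promoter windows held at least 1. Neither motif was found in the window of the second SORT1 start. TATAAA or TTTATA, held by 11.5% of promoter windows, was found in 0 of the 4 windows. A match is a match of letters only. The CELSR2 gene is 475 bp longer in the RefSeq table than in the GRCh37 positions used here, so the printed CELSR2 window may lie off the GRCh37 start. For PSRC1 and SORT1 the lengths differ by 25 and 43 bp.

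At the GRCh37 positions used here, all 3 gene starts lay inside both an H3K4me3 and an H3K27ac region. The share of all gene starts inside both marks was not computed, as no GRCh37 annotation was used. The pairing was common in the list, where 18955 of 24446 H3K4me3 regions overlapped H3K27ac. The 3 of 3 is therefore not shown to be particular to this locus. The CELSR2 start at 109792641 lay in an H3K4me3 region from 109791589 to 109793220 with a signal value of 26.7, at percentile 60.6 of the list. The PSRC1 start at 109825790 lay in a region from 109824055 to 109827036 with a signal value of 38.2, at percentile 70.9. The SORT1 start at 109940573 lay in a region from 109938601 to 109941623 with a signal value of 32.3, at percentile 64.8. These were the strongest 3 of the 11 H3K4me3 regions and the only ones above the list median of 13.3. Widths were 1632 bp at CELSR2, 2982 bp at PSRC1 and 3023 bp at SORT1. The summits lay 155 bp upstream of the start at CELSR2 and 221 and 660 bp downstream at PSRC1 and SORT1.

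Acetylation at the starts varied far more than H3K4me3. At the CELSR2 start the H3K27ac region ran only from 109792335 to 109792723, 389 bp, with a signal value of 3.51 at percentile 54.3. At the PSRC1 start it ran from 109824028 to 109827466, 3439 bp, with a signal value of 15.5 at percentile 84.1. At the SORT1 start it ran from 109936549 to 109942101, 5553 bp, with a signal value of 7.85 at percentile 73.2. The acetylated region at the CELSR2 start was thus the narrowest and the lowest in signal value of the 3, although above the median of its list. Of the 9643 H3K4me3 regions at least as strong as the one at CELSR2, 1.09% (105) had a strongest overlapping H3K27ac region no stronger than that, or none. The median of that strongest H3K27ac signal value over the 9643 regions was 23.8. The corresponding shares were 19.9% of 7108 regions for PSRC1 and 5.68% of 8602 for SORT1. The SORT1 share did not count a stronger H3K27ac region, with a signal value of 17.1, separated by 67 bp from the one at the start. The CELSR2 start lay 82 bp from the downstream edge of its acetylated region, and 306 bp from the upstream edge, both closer than the 475 bp by which the gene lengths differ. If 1 build offset holds across the locus, the PSRC1 and SORT1 positions place the RefSeq CELSR2 start upstream of the GRCh37 one. The size of that shift was not computed, and 475 bp is only the difference in gene length. A start 475 bp upstream would lie outside that H3K27ac region but inside the H3K4me3 region, which reached 1052 bp upstream. The builds were not converted, so this was not tested.

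**Figure D3:**
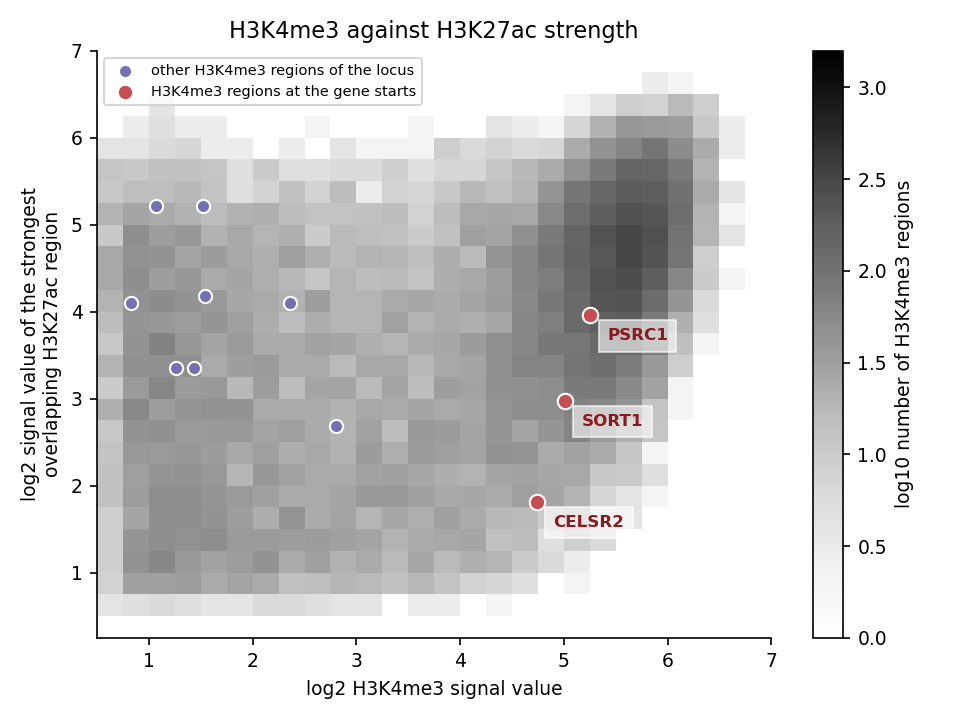
H3K4me3 signal value (x axis, log2) against the signal value of the strongest overlapping H3K27ac region (y axis, log2), with grey shading for the number of H3K4me3 regions that overlap H3K27ac and points for the 11 regions of the locus. The starts of CELSR2, PSRC1 and SORT1 lie at H3K27ac signal values of 3.51, 15.5 and 7.85, and the other 8 points have H3K4me3 signal values of at most 6.98.

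All 3 starts lay in a gap between H3K4me1 regions, as did the H3K4me3 summits there. The gap was 613 bp wide at CELSR2, 1189 bp at PSRC1 and 1910 bp at SORT1. At CELSR2 the upstream H3K4me1 region ended 498 bp from the start used here, close to the 475 bp by which the gene lengths differ. An H3K4me3 summit outside H3K4me1 was the rule at this strength: it held for 95.4%, 97.2% and 96.4% of the H3K4me3 regions at least as strong as those at CELSR2, PSRC1 and SORT1. The flanks differed between genes. At CELSR2 both were among the strongest H3K4me1 regions of the list, with a signal value of 9.65 from 109791080 to 109792143 (percentile 98.6) and 9.99 from 109792757 to 109793713 (percentile 98.8). At PSRC1 the upstream flank had a signal value of 4.25 (percentile 68.8) and the downstream flank 6.60 (percentile 91.5). At SORT1 the upstream flank had a signal value of 1.87, at percentile 0.326, and the first region downstream 2.71, at percentile 22.5. The next region downstream, 117 bp further, had a signal value of 6.09 at percentile 88.7 and also overlapped the H3K4me3 region of the start. CELSR2 thus had the weakest acetylation at its start and the strongest H3K4me1 beside it. That order did not extend to the other genes, as PSRC1 had stronger acetylation than SORT1 and also stronger H3K4me1 on both sides.

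**Figure D4:**
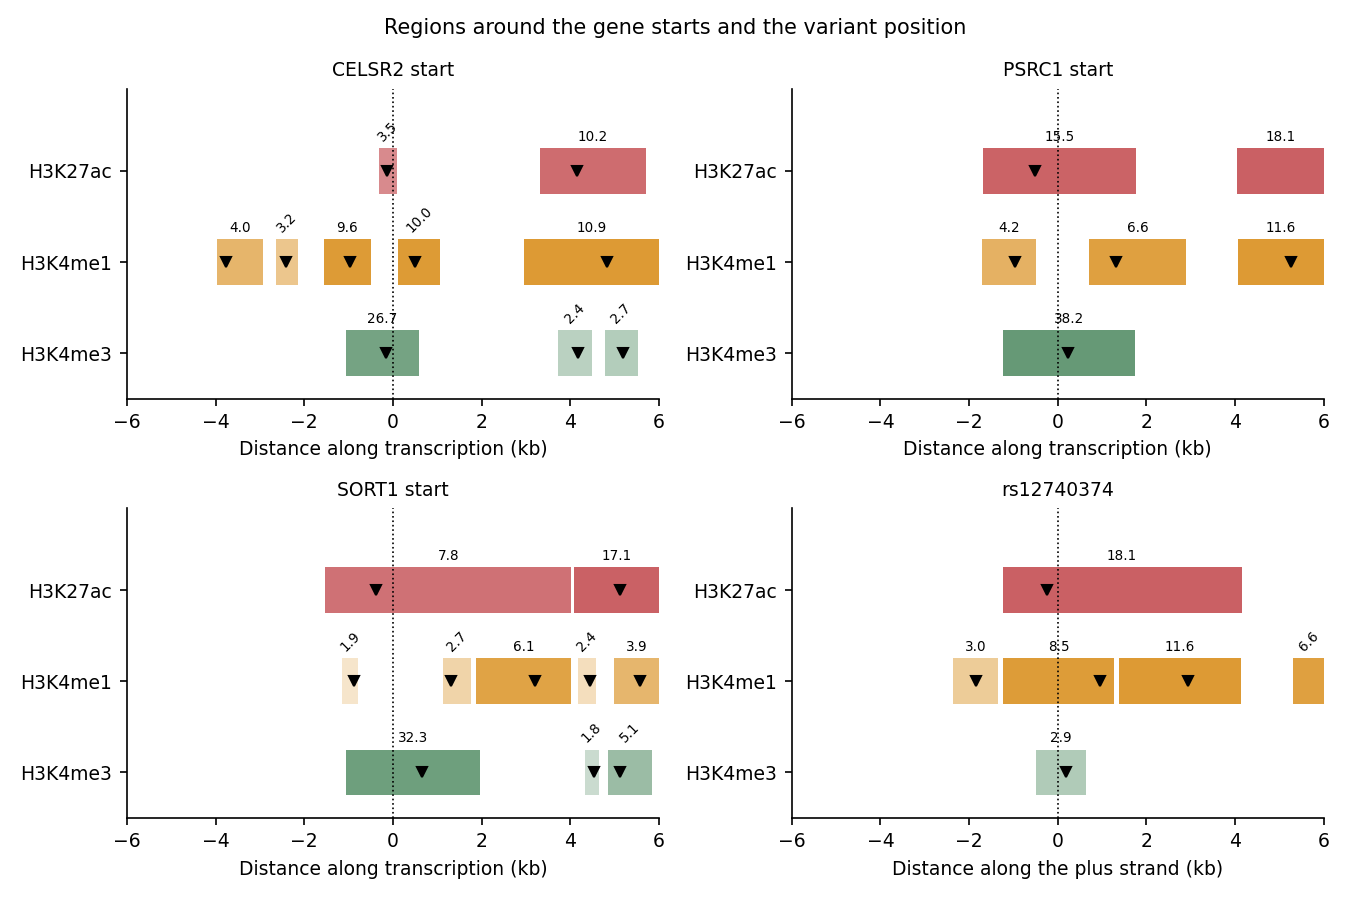
Regions within 6 kb of each gene start, along transcription, and of rs12740374, along the plus strand, with triangles at summits, the signal value above each region and stronger colour for a higher percentile in its list. Each start lies in an H3K4me3 region and a gap of H3K4me1, whereas the variant lies inside regions of all 3 marks.

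The position of rs12740374, 109817590, lay inside regions of all 3 marks, 788 bp before the end of CELSR2. The H3K27ac region ran from 109816345 to 109821741, 5397 bp, with a signal value of 18.1 at percentile 86.3, and was the second strongest acetylated region of the locus. Its summit, at 109817341, was 249 bp from the variant. The H3K4me1 region around the variant ran from 109816347 to 109818865 with a signal value of 8.48, at percentile 97.1, and its summit was 956 bp away on the PSRC1 side. The next H3K4me1 region, from 109818974 to 109821728, had the highest signal value of that mark in the locus, 11.6, at percentile 99.6. An H3K4me3 region from 109817109 to 109818225 also held the variant, with its summit 191 bp away. That region was weak, with a signal value of 2.91 at percentile 20.0. When only the stronger 50% of each list was kept, the variant was inside H3K27ac and H3K4me1 regions but not H3K4me3. The variant was 8.20 kb from the PSRC1 start, 24.9 kb from the CELSR2 start and 123.0 kb from the SORT1 start. Pooled peaks carry no allele, so alleles at the variant were not compared.

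The strongest acetylation of the locus lay at neither a gene start of the 3 members nor the variant. It was a region from 109840198 to 109844264, 4067 bp, between PSRC1 and SORT1, where MYBPHL, a myosin-binding protein gene, stands between these genes in RefSeq's order. Its H3K27ac signal value was 37.0, at percentile 96.4, rank 2402 of 66513. It was the only 1 of the 24 acetylated regions in the top 10% of the list, against 10% of the list by construction. H3K4me1 regions with signal values of 6.79 and 10.3 (percentiles 92.4 and 99.1) covered much of it, from 109839386 to 109842002 and from 109842132 to 109845029. H3K4me3 was present at 109841455 to 109841926 and 109842149 to 109843131, with signal values of only 2.87 and 2.10, at percentiles 19.6 and 8.49. Of the 2402 H3K27ac regions at least this strong, 9.99% (240) overlapped no H3K4me3 region above that list's median.

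Further towards SORT1, an H3K27ac region from 109847991 to 109850770 with a signal value of 6.42 (percentile 69.4) held an H3K4me3 region from 109848437 to 109850192 with a signal value of 6.98 (percentile 40.2). This was the strongest H3K4me3 away from the 3 starts. A single H3K4me1 region of 7078 bp, from 109846707 to 109853784, spanned it and reached into the end of the SORT1 body. It was wider than 99.5% of its list, at a signal value of 4.84. Whether the start of MYBPHL falls here was not determined, as no GRCh37 position of that gene was used.

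Inside CELSR2, 3.31 kb after its start, lay a second site with all 3 marks. The H3K27ac region from 109795954 to 109798347 had a signal value of 10.2 (percentile 77.6). That H3K4me1 region, from 109795605 to 109799123, had a signal value of 10.9 at percentile 99.4. H3K4me3 regions within it, from 109796375 to 109797123 and from 109797417 to 109798169, had signal values of 2.40 and 2.71, at percentiles 13.3 and 17.6. The acetylation just inside the gene was thus stronger than that at the start itself, 10.2 against 3.51.

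The SORT1 body held 14 H3K27ac summits, 18 H3K4me1 summits and 3 H3K4me3 summits. The strongest acetylation in it was a region from 109932990 to 109936481, 3492 bp, with a signal value of 17.1 at percentile 85.5. This was above the 7.85 at the SORT1 start, from which its region was separated by 67 bp. Joined across such short gaps, acetylation ran without a break over 1000 bp from 109932990 to 109942101, 9.11 kb, wider than 97.5% of joined regions. H3K4me3 in the inner region was weak, with signal values of 5.14 (percentile 34.4) from 109934722 to 109935718 and 1.77 (percentile 2.88) from 109935925 to 109936246. The summit of the former was 5124 bp downstream of the SORT1 start, and the regions spanned 4855 to 5851 bp and 4327 to 4648 bp downstream. In GRCh38.p14 the second SORT1 start, whose window is printed above, lies 4783 bp downstream of the first. Since the builds were not converted, and SORT1 differs in length by 43 bp between the sources, these distances are given side by side only.

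The SORT1 body also held a long unmarked stretch. From 109854330 to 109887741, 33412 bp without a break, no region of any mark was listed. Of the 169016 such stretches between marked regions in the genome, 8.66% were at least as long, and the median was 2196 bp. Between that stretch and the acetylated block at the start, the strongest H3K27ac regions were a neighbouring pair with signal values of 4.99 and 6.10 at 109913075 to 109917691, which overlapped 1 H3K4me1 region and no H3K4me3. They were at percentiles 64.1 and 68.4. The strongest H3K4me1 region of that part, from 109924740 to 109926948, had a signal value of 6.57 at percentile 91.3.

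By mark combination, 8 of the 24 H3K27ac regions (33.3%) overlapped H3K4me3 and are called promoter-like here, against 31.7% of the list. A further 12 (50%) overlapped H3K4me1 without H3K4me3 and are called enhancer-like, against 59.8%, and 4 (16.7%) overlapped neither, against 8.52%. H3K4me1 regions with neither other mark numbered 20 of 42 (47.6%), against 61.6% of that list. All 11 H3K4me3 regions overlapped both other marks, against 74.1%. The names describe overlap only, because 4 of the 5 strongest acetylated regions were promoter-like through an H3K4me3 region under that list's median of 13.3. The exception was PSRC1. Keeping the stronger 50% of each list left 3 promoter-like regions, 1 for each gene start, and made those 4 enhancer-like. Regions above their list median numbered 13 of 24 for H3K27ac, 24 of 42 for H3K4me1 and 3 of 11 for H3K4me3, against 50% of each list. In the top 10% there were 9 of 42 H3K4me1 regions and 0 of 11 H3K4me3 regions, against 10% of each list.

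**Figure D5:**
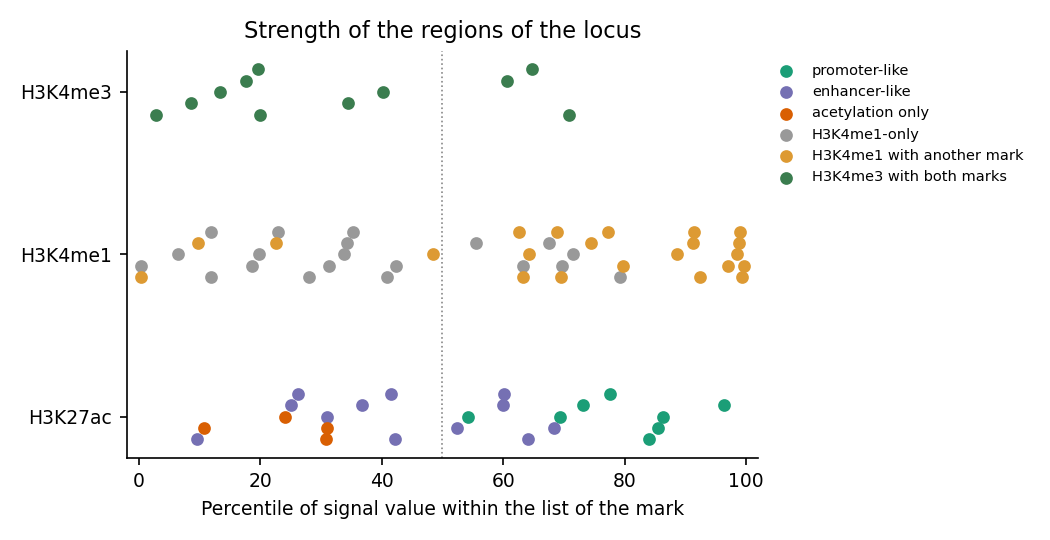
Percentile of signal value within its own list (x axis) for each of the 77 regions of the locus, by mark (y axis, points spread vertically for visibility) and mark combination (colour), with a dotted line at the list median. Of the H3K4me3 regions only those at the 3 gene starts lie to the right of the line, while 24 of 42 H3K4me1 regions do.

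H3K4me3 and H3K27ac summits nearly coincided in some regions and not in others. They were 1 bp apart in the strongest acetylated region between PSRC1 and SORT1 (109841710 and 109841711) and 1 bp apart in the inner SORT1 region (109935449 and 109935450). They were 12 bp apart in the region from 109847991 to 109850770, 29 bp apart inside CELSR2 and 21 bp apart at the CELSR2 start. At the PSRC1 and SORT1 starts they were 734 and 1049 bp apart, and at the variant 440 bp. The other 3 H3K4me3 summits, inside CELSR2, between PSRC1 and SORT1 and inside SORT1, were 1029, 700 and 584 bp from the nearest H3K27ac summit. In all, 5 of 11 H3K4me3 regions had an H3K27ac summit within 30 bp, a distance chosen after these values were seen. In the list this held for 17.6% of the 18955 H3K4me3 regions that overlapped H3K27ac. By strength, it held for 25% of those under the H3K4me3 median and 13.3% of those at or above it. The 5 mix both strengths, as the region at the CELSR2 start is above that median. The median spacing was nevertheless larger in the locus, 440 bp against 100 bp. It counts the summits at 1029, 700 and 584 bp, each in an H3K27ac region whose 1 listed summit lay closer to another H3K4me3 summit. Such sharing was not counted over the list. Of the 11 H3K4me3 summits, 8 lay inside an H3K4me1 region, against 40.6% of the list. The 3 that did not were those at the gene starts, the only ones above the H3K4me3 median. The share of the list was not matched for strength. Of the 24 H3K27ac summits, 16 lay inside an H3K4me1 region, against 68.7% of the list.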

How the data were processed

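Histone marks were mapped by ChIP-seq in HepG2 cells, with paired reads of 51 bp per the labels' protocols. MACS2 and build hg19 (GRCh37) are named in the submitters' processing notes, without a version or role. The aligner, threshold and use of the control libraries are not given in the sources used here. Going by their names, the deposited lists pooled the 3 replicates of each mark. The authors deposited for each peak a score (not used here), a signal value, which is a score of their peak caller whose reference is not stated, its q-value as −log10, its p-value as −log10 (not used here), and a summit offset. Depth is not given by the lists. Positions are counted from 1.

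Gene and variant positions came with the definition of the locus. No GRCh37 annotation was used, so exons, neighbouring genes, the lipid gene list and the liver marker list fixed for it were not analysed here. Peaks of a list never overlapped, so each is 1 region. Regions overlapped where they shared at least 1 bp. Percentiles, classes and windows used chromosomes 1 to 22 and X, with windows laid end to end from each chromosome's first base to its last region. The named regions are those holding a gene start or the variant, all H3K4me3 regions and the 5 strongest H3K27ac and H3K4me1 regions; others that are named were chosen after their values were seen. Members, lists and settings were chosen with earlier results of these data known. With 1 pooled list per mark no test was possible. Interval counting was checked on simulated regions. Python 3.11.15, numpy 2.4.6, pandas 2.3.3, scipy 1.17.1 and matplotlib 3.10.9 were used.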

Additional observations from a re-analysis of the deposited data

How the results depend on the processing

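Over 19 results, 74 alternative values were computed, of which 53 stayed within 1.5 times the value reported (shares of windows within their 95% Wilson interval, which covers counting error only) and 21 moved further. Requiring 5 or more for the −log10 q-value, H3K27ac regions overlapping neither methylation numbered 1, H3K4me1 regions without another mark 10, and 1.32% of windows held as many H3K27ac bases. Keeping the stronger 50% of each list gave 13 H3K27ac, 24 H3K4me1 and 3 H3K4me3 regions, an H3K4me3 cover of 4.24%, 3 promoter-like regions, 0 with acetylation only and 9 with H3K4me1 only, and put the variant inside 0 H3K4me3 regions. The share of windows was then 1.17% for H3K27ac and 8.06% for H3K4me3. Joining peaks within 1000 bp gave 13 H3K27ac and 21 H3K4me1 regions, 5 enhancer-like, 1 with acetylation only and 7 with H3K4me1 only, and 2.60% of windows for H3K4me3. Asking for 50% of a region to be covered gave 5 promoter-like regions. Allowing 500 bp put 2 of the 3 gene starts, in place of 0, at an H3K4me1 region. Fewer regions follow from how filters and joining are built. Counting only regions with their summit inside the locus, or shifting the windows, moved nothing that far. No paired analysis was possible because the lists pool the replicates, and for the same reason no replicate could be left out.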

Other observations

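The nearest acetylated regions outside the locus were strong. On the CELSR2 side, H3K27ac from 109756023 to 109759907 had a signal value of 24.7 and H3K4me3 from 109755868 to 109758935 one of 56.9, ending 20.1 and 21.1 kb before the locus. On the SORT1 side, H3K27ac from 109966908 to 109970560 had a signal value of 36.4 and H3K4me3 from 109967143 to 109970834 one of 35.9, beginning 6.91 and 7.14 kb beyond it. In RefSeq's gene order SARS1, a seryl-tRNA synthetase gene, precedes CELSR2, and PSMA5, a proteasome subunit gene, follows SORT1.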
